A study of Mus musculus with 43 samples.

Results

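Striatal projection neuron genes were followed in brain RNA from mice of 2 Irs1 genotypes on 2 diets. The set holds 7 genes, Drd2, Adora2a, Penk, Tac1, Ppp1r1b, Rgs9 and Pde10a, chosen by name from the 42349 entries of the deposited expression table and read in its 4 brain groups. Each of the 7 had a single entry of its own, and all 7 passed the filter on low values in every comparison. The groups were WT AL (wild type, fed ad libitum, 2 libraries), WT DR (wild type, 30% dietary restriction, 3 libraries), KO AL (Irs1-/-, fed ad libitum, 3 libraries) and KO DR (Irs1-/-, 30% dietary restriction, 3 libraries). All came from female mice killed at 15 months of age. Restriction began at 10 weeks of age and lasted 12 months. The KO is a global knockout of insulin receptor substrate 1, and the controls carry Irs1+/+. The labels give the tissue as brain and name no region.

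The striatum is the input station of the basal ganglia, and nearly all of its neurons are GABAergic projection neurons. They fall into an indirect-pathway class that carries the dopamine D2 receptor, the adenosine A2a receptor and enkephalin, and a direct-pathway class that carries the dopamine D1 receptor, substance P and dynorphin. Dopamine and adenosine act on cAMP in these cells in opposite ways, and DARPP-32, the product of Ppp1r1b, is a phosphoprotein through which both classes turn cAMP signals into inhibition of protein phosphatase 1. Pde10a encodes a phosphodiesterase that breaks down cAMP and cGMP, and Rgs9 a regulator that speeds the switching off of G proteins downstream of dopamine and opioid receptors.

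The deposited table gives 1 FPKM value per gene and group (fragments per kilobase of transcript, scaled to the mapped fragments of a library), with the authors' 95% confidence interval, which pools the libraries of the group. No value of a single library was used here, which leaves the spread between mice uncomputed and the depth unknown. The SD that the interval implies ranged over the 7 genes from 14.8% to 26.4% of the FPKM in WT DR, from 20.7% to 33.5% in KO DR, from 33.1% to 45.6% in WT AL and from 20.8% to 62.9% in KO AL. Irs1 itself, the gene deleted in the KO, had a brain FPKM of 2.47 in WT AL, 1.62 in WT DR, 3.49 in the group labelled KO AL and 4.14 in the group labelled KO DR. It was higher, not lower, in the group labelled KO DR than in WT DR (log2 difference 1.35, SE 0.40, adjusted p 0.077, Wald test described below). Irs1 was also higher in KO than in WT in liver (AL 5.95 beside 4.70, DR 4.75 beside 3.29) and skeletal muscle (AL 6.31 beside 5.72, DR 5.82 beside 5.48). In white adipose tissue it was higher in KO AL than in WT AL (5.37 beside 2.47) and lower in KO DR than in WT DR (2.58 beside 6.56). The intervals of each of these pairs overlapped. The genotype labels are thus not borne out by this gene's level in brain or in most other comparisons, and whether its level can test them is not known. The directions below are those of the labels.

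The genes encoding neuropeptides are shown first through the stretches of their messages that code for the active peptides, since Penk was the most abundant of the 7 messages and Tac1 the one whose order of groups departed from the rest. In the GENCODE M21 transcript of Penk (268 codons, 2 exons, minus strand of chromosome 4), 7 enkephalin pentapeptide sequences are encoded, 6 ending in methionine and 1 in leucine, all in exon 2. The first copy lies at chr4:4134334-4134348, the sixth, which encodes Leu-enkephalin, at chr4:4133941-4133955, and the last at chr4:4133848-4133862 of GRCm38. In the Tac1 transcript that encodes both peptides (130 codons, 7 exons, plus strand of chromosome 6), the tachykinin ending shared by substance P and neurokinin A is encoded at chr6:7556750-7556764 in exon 3 and at chr6:7559116-7559130 in exon 6. The last codon, which separates Met-enkephalin from Leu-enkephalin and closes the tachykinin ending, is in capitals.
Penk copy 1, Met-enkephalin: tacggaggcttcATG
Penk copy 6, Leu-enkephalin: tatgggggcttcCTG
Penk copy 7, pentapeptide ending in methionine: tacgggggctttATG
Tac1 exon 3, substance P ending: ttctttggattaATG
Tac1 exon 6, neurokinin A ending: tttgttggactaATG
An FPKM counts whole messages, so a Penk value does not count peptide copies.

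The genes lie on 6 chromosomes of GRCm38. Drd2 spans 9:49340627-49408177 and Adora2a 10:75316877-75334784, both on the plus strand. Ppp1r1b (11:98348404-98357796, plus) and Rgs9 (11:109225355-109298129, minus) share chromosome 11. Pde10a spans 461 kb (17:8525372-8986648, plus), and Tac1 11.0 kb (6:7554879-7565834, plus). The annotated Penk gene spans 5.29 kb (4:4133531-4138819, minus), while the table's entry named Penk reaches 4188703 and spans 55.2 kb. Opposite-strand genes overlap Ppp1r1b (1 gene), Pde10a (3 genes) and Penk (1 gene), and whether the authors counted by strand is not given in the sources used here, so reads from these partners cannot be told apart.

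Penk and Ppp1r1b were the most abundant of the 7 messages and together made up 73.0% to 80.5% of their summed FPKM in a brain group. The Penk FPKM was 176 (52.9 to 299, the authors' 95% interval) in WT AL, 239 (113 to 365) in WT DR, 243 (33.7 to 452) in KO AL and 180.0 (61.8 to 298) in KO DR. WT DR and KO AL were the higher pair and WT AL and KO DR the lower pair, and all 4 intervals overlapped. Drd2, the least abundant, had an FPKM of 4.79 (0.421 to 9.15) in WT AL, 8.64 (6.08 to 11.2) in WT DR, 12.5 (7.30 to 17.7) in KO AL and 7.42 (2.45 to 12.4) in KO DR. Its highest group was KO AL and its lowest WT AL, with every interval overlapping the others. Adora2a, which encodes the adenosine A2a receptor, had an FPKM of 15.8 (4.90 to 26.8) in WT AL, 27.6 (17.0 to 38.2) in WT DR, 29.0 (6.88 to 51.2) in KO AL and 15.9 (9.32 to 22.5) in KO DR. As for Penk, WT AL and KO DR were nearly level and lay under WT DR and KO AL.

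**Figure D1:**
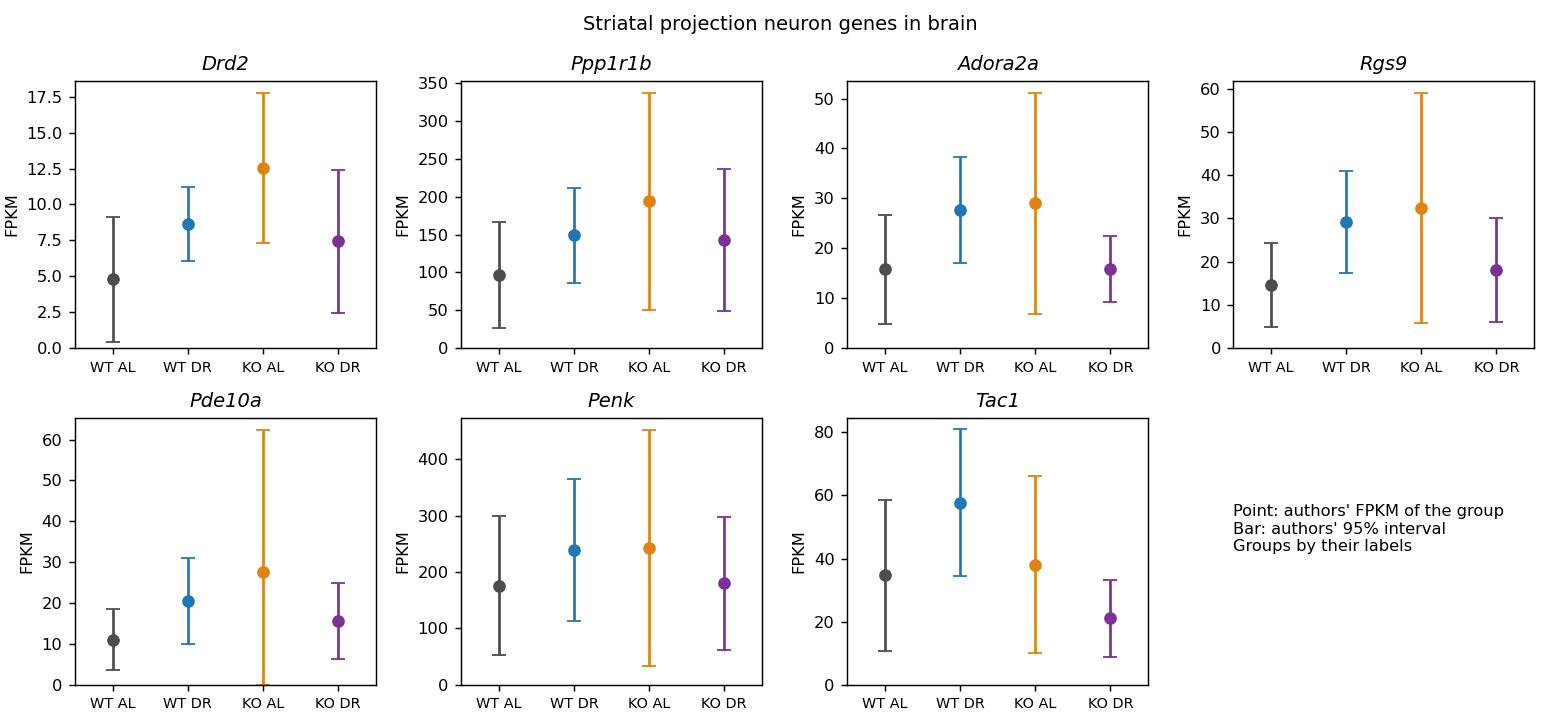
FPKM of each of the 7 genes (vertical axes, from 0) in the 4 brain groups, named by their labels (horizontal axes). Points are the authors' group values and bars their 95% intervals; WT AL is lowest for 6 genes and KO DR for Tac1, and only the WT DR and KO DR bars of Tac1 are clear of each other.

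Tac1, the tachykinin precursor of the direct pathway, followed another order. Its FPKM was 34.6 (10.8 to 58.4) in WT AL, 57.8 (34.5 to 81.0) in WT DR, 38.1 (10.1 to 66.1) in KO AL and 21.0 (8.71 to 33.4) in KO DR. KO DR was the lowest group and WT DR the highest, and their intervals did not overlap. Neighbouring groups in this order overlapped.

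Among the genes common to both classes of projection neuron, Ppp1r1b had an FPKM of 96.7 (26.9 to 166) in WT AL, 149 (86.6 to 211) in WT DR, 194 (50.4 to 338) in KO AL and 143 (49.1 to 237) in KO DR. For Rgs9 the FPKM was 14.6 (4.96 to 24.3) in WT AL, 29.2 (17.4 to 41.1) in WT DR, 32.5 (5.87 to 59.1) in KO AL and 18.1 (6.09 to 30.2) in KO DR. For Pde10a it was 11.1 (3.57 to 18.6) in WT AL, 20.6 (10.1 to 31.1) in WT DR, 27.5 (0 to 62.2) in KO AL and 15.6 (6.30 to 25.0) in KO DR. All 3 genes had the order WT AL, KO DR, WT DR and KO AL from low to high, shared by Drd2, Adora2a and Penk, and no pair of neighbours differed beyond the intervals. In bulk tissue, fewer cells of a type and less RNA per cell cannot be told apart.

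When each gene's log2 FPKM was centred on its mean over the 4 brain groups, the mean profile of the set was -0.46 in WT AL, 0.30 in WT DR, 0.44 in KO AL and -0.28 in KO DR. The profile of Adora2a lay closest to this mean (root mean square distance 0.08 on the log2 scale), followed by Rgs9 (0.10), Pde10a (0.16), Penk (0.17), Ppp1r1b (0.19) and Drd2 (0.21). Tac1 lay farthest, at 0.42. The ratio of the Penk FPKM to the Tac1 FPKM was 5.08 in WT AL, 4.14 in WT DR, 6.38 in KO AL and 8.56 in KO DR. These ratios carry no interval of their own, and their differences were not tested.

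**Figure D2:**
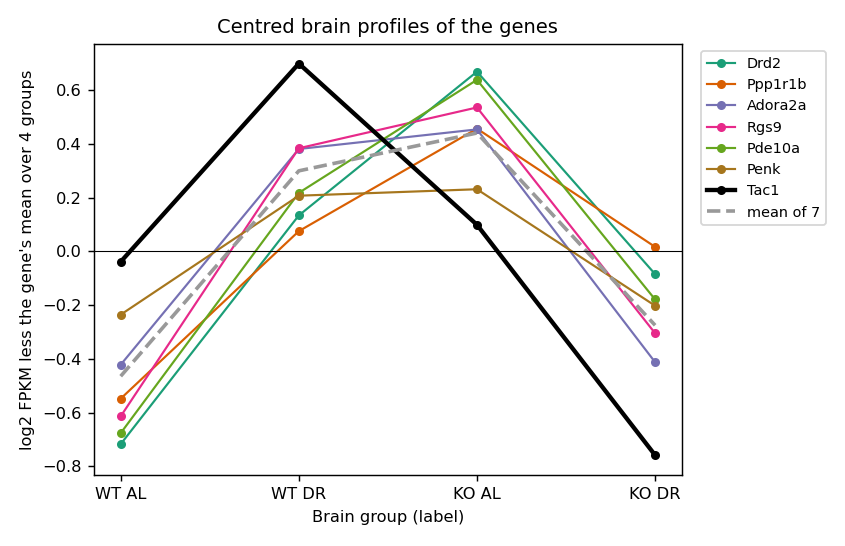
Log2 FPKM of each gene less its own mean over the 4 brain groups (vertical axis) by group label (horizontal axis). Each line links the 4 values of 1 gene and the dashed line is the mean of the 7; Tac1 peaks at 0.70 in WT DR and is lowest, at -0.76, in KO DR, while the other 6 peak in KO AL.

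The difference between the genotype labels under ad libitum feeding was read from KO AL against WT AL. All 7 genes had a higher FPKM in KO AL, where 59.0% of 15264 tested entries were higher, and the median log2 difference of the set was 1.00 beside 0.13 over all tested entries. Drd2 had the largest log2 difference, 1.39 (SE 0.72), a 2.61-fold higher level, and 5.02% of tested entries had a larger one. Pde10a followed at 1.31 (SE 1.03), Rgs9 at 1.15 (SE 0.76), Ppp1r1b at 1.00 (SE 0.75) and Adora2a at 0.88 (SE 0.74). The peptide precursors had the smallest differences, Penk 0.47 (SE 0.80) and Tac1 0.14 (SE 0.73). In a two-sided Wald test on the authors' intervals, adjusted over all tested entries by the Benjamini-Hochberg method, 0 of 7 passed the FDR of 10%, which 0.17% of tested entries passed as higher and 0.0328% as lower. At an unadjusted p under 0.05 there were also 0 of 7, against 1.39% of entries higher. With a smaller SE, taken as the SD over the square root of the labelled library number, 4 of the 7 had an unadjusted p under 0.05, as 5.12% of entries had as higher, and 0 passed the FDR, which 1.06% of entries passed as higher.

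The difference between diets in the groups labelled wild type was read from WT DR against WT AL, which shares its control group with the comparison above. All 7 genes were again higher, where 44.4% of 15164 tested entries were, with a median log2 difference of 0.80 beside -0.08 over all entries. The log2 differences were 1.00 for Rgs9 (SE 0.56), 0.89 for Pde10a (SE 0.61), 0.85 for Drd2 (SE 0.69), 0.80 for Adora2a (SE 0.57), 0.74 for Tac1 (SE 0.57), 0.62 for Ppp1r1b (SE 0.60) and 0.44 for Penk (SE 0.63). None passed the FDR of 10% in the Wald test, which 0.0989% of entries passed as higher, and 0 of 7 had an unadjusted p under 0.05. The smaller SE gave 3 of 7 at an unadjusted p under 0.05 (3.44% of entries higher) and 0 past the FDR (0.692% of entries higher). The interval for Rgs9, from -0.10 to 2.09 on the log2 scale, leaves room for no change and for a level more than 4 times higher.

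**Figure D3:**
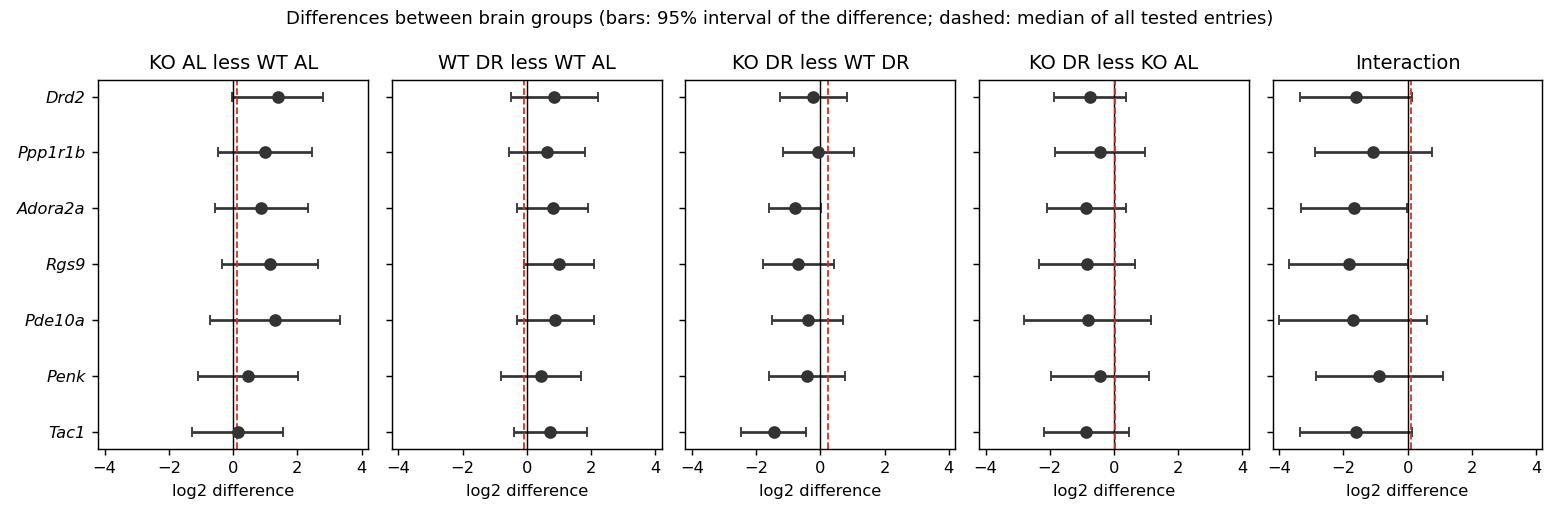
Log2 differences of the 7 genes (rows) in 4 comparisons of brain groups and in the interaction, the KO less WT difference in DR groups minus that in AL groups. Points are differences, bars their 95% intervals and dashed lines the median of all tested entries; the bars of Tac1 in KO DR less WT DR and of Adora2a in the interaction lie to the left of 0.

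Under restriction the genotype difference had the other sign. In KO DR against WT DR all 7 genes had a lower FPKM, where 35.1% of 15262 tested entries were lower, with a median log2 difference of -0.41 beside 0.23 over all entries. Tac1 had the largest difference, -1.46 (SE 0.51, 95% interval -2.46 to -0.45), and 98.2% of tested entries lay above it. Adora2a followed at -0.79 (SE 0.41) and Rgs9 at -0.69 (SE 0.56). The differences of Penk (-0.41, SE 0.61), Pde10a (-0.40, SE 0.57), Drd2 (-0.22, SE 0.53) and Ppp1r1b (-0.06, SE 0.56) were smaller than their SE. In the Wald test 0 of 7 passed the FDR of 10%, which 0.17% of entries passed as lower and 0.989% as higher. Tac1 had an unadjusted p of 0.0045 and an adjusted p of 0.22, and was the 1 gene of the set with an unadjusted p under 0.05, as 1.4% of entries had as lower. By intervals that do not overlap, Tac1 was lower in KO DR, as were 0.413% of entries. No other pair of groups was separated in this way for any of the 7, where 0.38% of entries were as higher in KO AL against WT AL, 0.541% as higher in WT DR against WT AL and 0.339% as lower in KO DR against KO AL. With the smaller SE, Tac1 (adjusted p 4.24e-05) and Adora2a (adjusted p 0.0099) passed the FDR as lower, 2 of 7 against 4.04% of entries. Less the median of all tested entries, 0.23, the difference of Tac1 was -1.69 and that of Adora2a -1.02.

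KO DR against KO AL, the difference between diets in the groups labelled KO, also gave 7 of 7 lower values, where 47.8% of 15349 entries were lower. The median log2 difference was -0.82 beside 0.03. The differences were close to each other, from -0.43 for Penk (SE 0.78) and -0.44 for Ppp1r1b (SE 0.71) to -0.86 for Tac1 (SE 0.68) and -0.87 for Adora2a (SE 0.63). Drd2 (-0.75, SE 0.57), Pde10a (-0.82, SE 1.01) and Rgs9 (-0.84, SE 0.76) lay between. The Wald test called 0 of 7 at the FDR of 10% (0.222% of entries lower) and 0 at an unadjusted p under 0.05. With the smaller SE, 3 of 7 had an unadjusted p under 0.05 (6.63% of entries lower) and 0 passed the FDR (2.37% of entries lower).

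Whether the genotype difference itself changed with diet was tested as an interaction, the KO less WT difference in the DR groups minus that in the AL groups. It was negative for all 7 genes, which follows from the signs of both genotype differences given above and is no further result. Of 15655 entries it was negative for 45.9%, and the median of the set was -1.60 beside 0.10. Rgs9 had -1.84 (SE 0.94), Pde10a -1.71 (SE 1.18), Adora2a -1.67 (SE 0.85), Drd2 -1.60 (SE 0.90), Tac1 -1.60 (SE 0.89), Ppp1r1b -1.06 (SE 0.93) and Penk -0.88 (SE 1.00). In the Wald test 0 of 7 passed the FDR of 10% (0.236% of entries lower), and Adora2a alone was under 0.05 unadjusted, against 1.55% of entries lower. Its unadjusted p was 0.049 and its adjusted p 1.00 in that test. With the smaller SE, Rgs9 (adjusted p 0.046), Adora2a (0.049) and Tac1 (0.083) passed the FDR as negative, 3 of 7 against 2.15% of entries. The members were chosen with earlier results of these data known, so their shared sign is a description.

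The remaining pairs of groups gave differences of mixed sign. In KO DR against WT AL the 7 differences ran from -0.72 for Tac1 (SE 0.65) to 0.63 for Drd2 (SE 0.82), and in KO AL against WT DR from -0.60 for Tac1 (SE 0.60) to 0.53 for Drd2 (SE 0.37). The Wald test called 0 of 7 at the FDR of 10% in each (0.105% and 0.577% of entries in either direction) and 0 at an unadjusted p under 0.05. With the smaller SE, which called 0.27% and 6.59% of entries, 0 of 7 passed, and Drd2 in KO AL against WT DR had an unadjusted p of 0.012.

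Other genes known from striatal projection neurons were read from fixed lists. Of the direct-pathway list, 6 genes had an entry of their own. Drd1a, the table's name for the dopamine D1 receptor gene, had an FPKM of 8.23 in WT AL, 14.0 in WT DR, 17.0 in KO AL and 6.43 in KO DR, so that KO DR was lowest as for Tac1. Its log2 difference in KO DR against WT DR was -1.12 (SE 0.49), with an unadjusted p of 0.021 and an adjusted p of 0.49 in the Wald test. Chrm4, a muscarinic receptor of the direct pathway, had an FPKM of 14.0, 26.1, 30.2 and 18.7 in the same order, and Pdyn, the dynorphin precursor, 21.1, 30.2, 29.2 and 20.4. The FPKM of Drd2 divided by that of Drd1a was 0.581 in WT AL, 0.617 in WT DR, 0.736 in KO AL and 1.15 in KO DR, again without an interval.

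In the indirect-pathway list (5 genes with an entry), Gpr6, an orphan receptor, had an FPKM of 4.68 in WT AL, 13.2 in WT DR, 15.3 in KO AL and 9.64 in KO DR. In the list of genes shared by both classes (27 with an entry), Tmem158 had 25.8, 60.4, 64.5 and 42.2. In KO AL against WT AL, 5 of 6 direct-pathway, 5 of 5 indirect-pathway and 26 of 27 shared genes were higher, with medians of 0.76, 0.56 and 0.71. In WT DR against WT AL it was 4, 4 and 25 genes, with medians of 0.64, 0.68 and 0.45. In KO DR against WT DR, 5 of 6 direct-pathway genes (median -0.52), 1 of 5 indirect-pathway genes (median 0.36) and 19 of 27 shared genes (median -0.33) were lower. In these 3 comparisons the Wald test called 0 genes of the 3 lists at the FDR of 10%. At an unadjusted p under 0.05, Tmem158 was higher in KO AL against WT AL, and Tmem158 and Gpr6 in WT DR against WT AL. Drd1a was under it as lower in KO DR against WT DR. With the smaller SE Tmem158 passed the FDR in the first 2 comparisons (log2 differences 1.32 and 1.23) and in the interaction (-1.84, adjusted p 0.0037).

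As a list, the signalling partners of DARPP-32 had median differences smaller in size than those of the 7 genes, a contrast that was not tested. Gnal, Gng7 and Adcy5 were counted in the shared list instead. Gng7 had an FPKM of 67.0 in WT AL, 135 in WT DR, 125 in KO AL and 71.2 in KO DR, and Adcy5 36.9, 40.0, 52.6 and 48.0. Single genes of the partner list reached a log2 difference of 1.37 (Adcy2, KO AL against WT AL). Over 27 genes of the list, which holds subunits of protein kinase A, protein phosphatases, Cdk5, G protein subunits and adenylate cyclases, the median log2 difference was 0.33 in KO AL against WT AL, 0.24 in WT DR against WT AL and 0.15 in KO DR against WT DR, and 0 passed the FDR of 10% in the Wald test. At an unadjusted p under 0.05 there were 1, 0 and 4 genes. Over the enzymes that process neuropeptides and the receptors of the Penk and Tac1 products (12 tested), the medians were -0.07, 0.10 and 0.11. Of these, Pcsk1n, which encodes an inhibitor of a prohormone convertase, was up-regulated in KO DR against WT DR (log2 difference 1.26, SE 0.38, adjusted p 0.093, Wald test) and not in the other 2. In KO DR against WT DR, 0.989% of all tested entries were called higher.

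**Figure D4:**
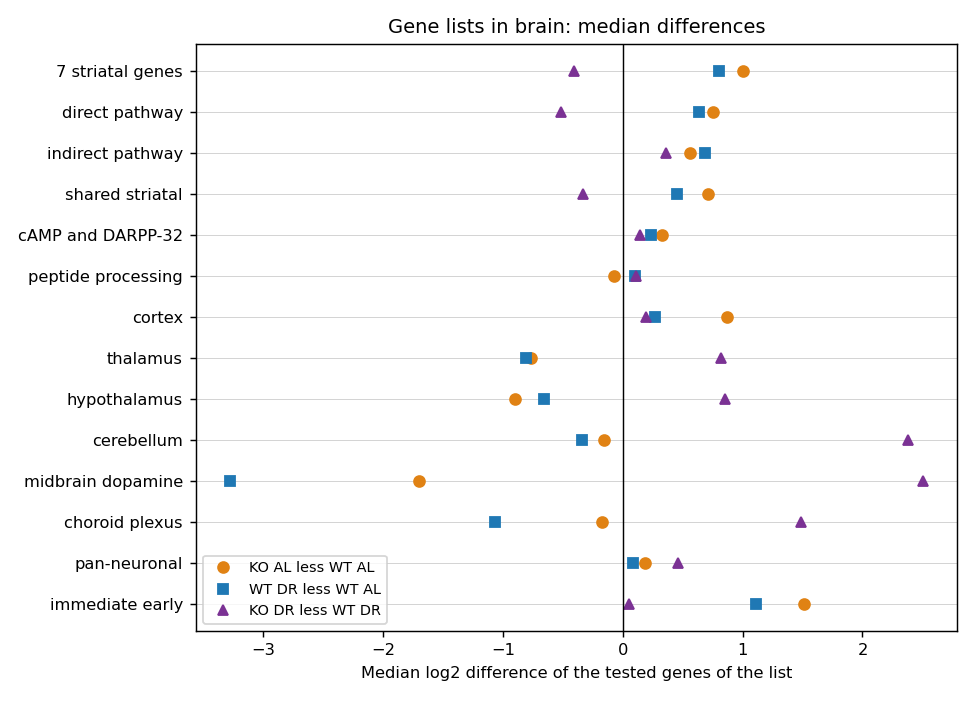
Median log2 difference over the tested genes of each fixed list (horizontal axis) in 3 brain comparisons, 1 symbol per comparison. The 7 striatal genes have medians of 1.00, 0.80 and -0.41, and the midbrain dopamine list -1.70, -3.27 and 2.50.

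Markers of other brain regions differed between the same groups. The summed FPKM of 9 midbrain dopamine neuron markers was 123 in WT AL, 28.2 in WT DR, 43.3 in KO AL and 98.8 in KO DR, and 2 of them (Foxa1 and Pitx3) were listed at 0 in WT DR. Slc6a3, the dopamine transporter, had an FPKM of 16.1, 0.104, 0.312 and 7.34 in this order. It was called lower in KO AL and in WT DR against WT AL, and higher in KO DR against WT DR. Of the midbrain list, 1 of 8 tested markers was called lower in KO AL against WT AL, and 3 of 7 in WT DR against WT AL (Th, Slc6a3 and Slc18a2). In KO DR against WT DR, 6 of 7 tested were called higher (Th, Slc6a3, Slc18a2, Ddc, Aldh1a1 and En1). The shares of all tested entries called in these directions were 0.0328%, 0.125% and 0.989%. All 9 thalamus markers were lower in KO AL and in WT DR than in WT AL (medians -0.76 and -0.81) and higher in KO DR than in WT DR (median 0.82), with 0 called in each and 0, 0 and 2 at an unadjusted p under 0.05. Their summed FPKM was 92.2 in WT AL, 49.7 in WT DR, 52.1 in KO AL and 102 in KO DR. Of 10 cerebellum markers, 4 were up-regulated in KO DR against WT DR, where their summed FPKM was 234 and 110, beside 76.2 in WT AL and 106 in KO AL. Of all tested entries, 0.989% were called higher in that comparison. Of 9 cortex markers, 9 were higher in KO AL than in WT AL (median 0.87, 0 called), and their summed FPKM was 346 in WT AL, 411 in WT DR, 615 in KO AL and 450.2 in KO DR. The 6 olfactory bulb markers summed to 2.60, 4.09, 17.7 and 3.88 in the same order of groups. The 15 markers of glia and vessels summed to 5450, 2316, 5687 and 5350, with Mag called higher in KO DR against WT DR (0.989% of entries higher). Most of this sum was the 1 gene Mbp (3877, 1380, 4391 and 3877). In WT DR against WT AL, 5 of the 15 markers were higher and 10 lower. The summed FPKM of 8 choroid plexus markers was 197 in WT AL, 69.7 in WT DR and 336 in KO DR, with KO AL between the WT groups, and that of 10 hypothalamus markers was 197 in WT AL, 146 in WT DR, 62.5 in KO AL and 245 in KO DR. Most of the choroid plexus sum was Ttr, with 164 in WT AL, 52.4 in WT DR, 48.5 in KO AL and 289 in KO DR. The 5 red blood cell genes summed to 1032, 971, 9907 and 3475 in the same order of groups. In KO DR against WT DR 3 of them were called higher, as were 0.989% of all tested entries. Of 12 immediate early genes, which are induced by neuronal activity, 11 were higher in KO AL and 11 in WT DR than in WT AL (medians 1.51 and 1.11). Junb was called higher in the former, as were 0.17% of all tested entries. The summed FPKM of the 12 genes was 159, 257, 377 and 264. The summed FPKM of 10 general neuronal genes was 2668 in WT AL, 2490 in WT DR, 3326 in KO AL and 3483 in KO DR. The sum over the 7 striatal genes was 354, 532, 577 and 401 in the same order of groups. It was thus high in the groups where the summed midbrain, thalamus, choroid plexus and hypothalamus markers were low. Not all markers of these lists followed their sum. In WT DR against WT AL, 3 of 9 tested hypothalamus markers were higher, among them Oxt (log2 difference 3.79), and 6 lower. In KO AL against WT AL, 3 of 8 choroid plexus markers were higher and 5 lower (median -0.17). The sums of the cortex, hippocampus, olfactory bulb and immediate early lists were also highest in KO AL and lowest in WT AL. The part of regional composition, glia, blood and activity in the striatal values was not tested. Drd2 is also the autoreceptor of midbrain dopamine neurons, and its lowest value was in WT AL, where Th and Slc6a3 were highest (Th FPKM 20.6, 2.13, 6.39 and 12.1). How much of the Drd2 value came from midbrain neurons was not tested.

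Genes with the brain profile nearest to the mean of the 7 were looked up by a fixed rule among 8204 single-gene entries with an FPKM of at least 5 in all 4 groups. The 10 nearest were Fjx1, Mast2, Mrpl15, Dlg2, Gm13690, Phactr1, Rpl10a, Aldh1l1, Ptpmt1 and S100a13, at a root mean square distance of 0.03 to 0.05 over 4 group values, where the median entry lay at 0.46. Phactr1 had an FPKM of 44.0 in WT AL, 78.9 in WT DR, 90.8 in KO AL and 53.4 in KO DR. Of the list genes, Aldh1l1, an astrocyte marker, ranked 8 and Chrm4 41. The division of reads between Rpl10a and its near-identical copies is uncertain.

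Outside the brain the 7 genes were read as a check of the set. Drd2 and Tac1 were listed at 0 in all 4 liver groups. The lowest brain FPKM of a gene was 73.9 times its highest FPKM in liver, skeletal muscle or white adipose tissue for Drd2, 27.7 times for Tac1, 15.4 times for Ppp1r1b, 12.7 times for Rgs9 and 10.8 times for Pde10a. For Penk it was 4.83 times and for Adora2a 1.19 times, both set by white adipose tissue. Penk had an FPKM in that tissue of 36.4 (22.0 to 50.8) in WT AL, 21.2 (0.022 to 42.4) in WT DR, 26.8 (13.1 to 40.5) in KO AL and 34.6 (8.34 to 60.8) in KO DR. Adora2a had 13.3 (8.14 to 18.5), 5.33 (1.37 to 9.28), 12.1 (5.80 to 18.3) and 8.73 (2.97 to 14.5) there. All these intervals overlapped between groups. Values in skeletal muscle reached 6.33 for Penk, and Ppp1r1b reached 6.28 in liver of KO DR mice.

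**Figure D5:**
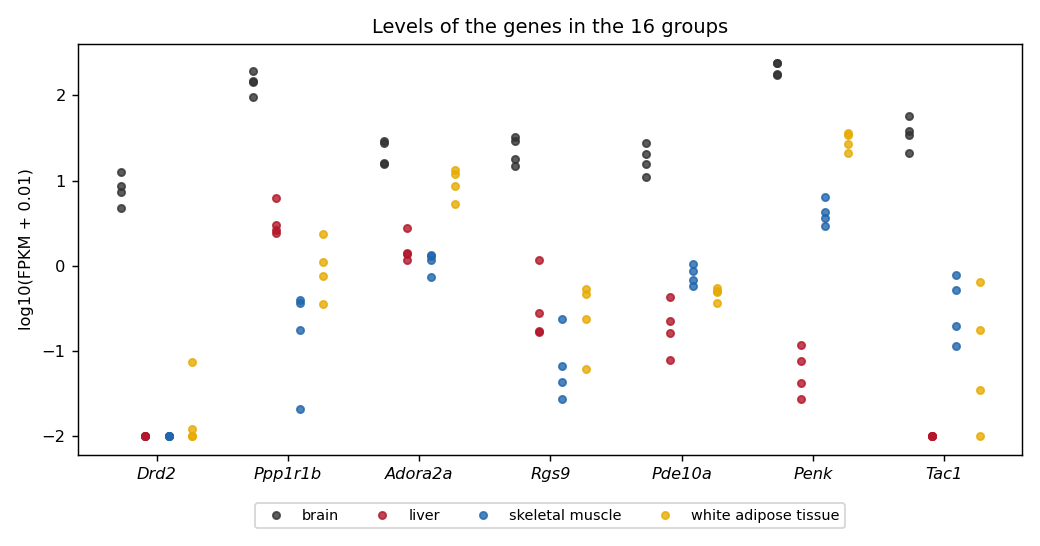
Level of each gene (horizontal axis) in the 16 groups of the table, as log10(FPKM + 0.01) on the vertical axis, with 1 point per group and 1 colour per tissue. Brain points lie above those of the other tissues for every gene, with white adipose tissue closest for Adora2a and Penk.

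Promoter windows of RefSeq (GRCm38.p6, 250 bases before to 50 after a start site) were held for 4 of the 7 genes, Drd2, Rgs9, Pde10a and Tac1. They were searched on both strands for TGACGTCA, the full cAMP response element, and for TGCGTCA, the element known from the enkephalin promoter, because cAMP signalling bears on all 7 genes. The full element was in 0 of the 5 windows of these genes and in 1.79% of 32851 windows in all. TGCGTCA, which is not contained in the full element, was in 1 window, that of Tac1, and in 2.12% of all windows. The stretch of the Tac1 window upstream of the annotated transcript, chr6:7554811-7554878 on the plus strand, is shown for Tac1 because it departed most from the other genes, with the matched letters in capitals.
Tac1: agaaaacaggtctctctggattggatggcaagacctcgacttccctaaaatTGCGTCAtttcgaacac
A match is a description of letters in a window and says nothing of binding in these samples.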

How the data were processed

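The authors trimmed single-end Ion Proton reads with cutadapt 1.5 and sickle, mapped them to GRCm38 with BBmap and ran Cuffdiff 2.2.1, which normalised between libraries. The deposited FPKM values, with the bounds of their 95% intervals, are 1 per gene and group, 16 groups in all, and 0 columns hold single libraries. The depth per library is unknown, so precision was read from that interval alone. The labels list 43 libraries, 11 of them from brain; nothing in the table separates them.

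From the table, the SD of a group was taken as the upper bound less the FPKM, divided by 2. Each log2 ratio, without pseudocount, was put to a Wald test on both sides (two-sided, delta-method SE, normal reference), with Benjamini-Hochberg adjustment over all entries that had the status OK, an FPKM above 0 in the groups compared and at least 1 in one of them. Calls used an FDR of 10%, as in the study. The code was tested on simulated data. Python 3.11.15, numpy 2.4.6, pandas 2.3.3, scipy 1.17.1 and matplotlib 3.10.9 were used. Genes named are the 7 members, Irs1, genes of fixed lists and the 10 nearest profiles. Members and lists were chosen with earlier results of these data known. Symbols without a single entry of their own were left out of their list. Sequences are from RefSeq (GRCm38.p6) and GENCODE M21 (GRCm38). Alternatives were an FDR of 5%, non-overlapping intervals, a pseudocount of 0.1 or 1, no filter, a t distribution, an FPKM of at least 5, centring on the median entry, a minimum 2-fold difference, leaving out joined entries, and the smaller SE.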

Additional observations from a re-analysis of the deposited data

How the results depend on the processing

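The count of the 7 genes called was 0 in every comparison, and it stayed at 0 under all alternatives tried except 2, which moved 3 counts. An FDR of 5% and a minimum 2-fold difference can only leave a count of 0 as it is. The t distribution called 0 of all 15264 tested entries in KO AL against WT AL and 0 of 15164 in WT DR against WT AL. These settings are therefore no check of the count. Intervals that do not overlap called 1 gene (Tac1) as lower in KO DR against WT DR, as they did 0.413% of all tested entries. The SE divided by the square root of the number of libraries called 2 in that comparison (Tac1 and Adora2a) and 3 in the interaction (Adora2a, Rgs9 and Tac1). Over all tested entries it called 4.04% and 2.15% as lower. That SE is smaller by construction, and the intervals do not adjust for the number of entries. Centring on the median of all tested entries turned the sign of 5 small differences. In KO DR against WT AL, Adora2a became -0.15 and Penk -0.12. In KO AL against WT DR, Adora2a became -0.11, Rgs9 -0.028 and Penk -0.16. The other 521 values of single genes kept direction and call, beside 6 that became called. The adjusted p of Tac1 in KO DR against WT DR ranged from 4.24e-05 to 1 over the alternatives. Leaving out single libraries could not be run, and no paired analysis was possible because the columns hold 1 value per group. The depth per library is unknown, so what depth limits could not be given.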

Other observations

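Interneurons make up the remainder of the striatal neurons, and most of their markers are also made in other brain regions. Pvalb, the calcium buffer of fast-spiking interneurons, had a brain FPKM of 56.5 in WT AL, 18.5 in WT DR, 58.0 in KO AL and 104 in KO DR. It was up-regulated in KO DR against WT DR (log2 difference 2.49, SE 0.41, Wald test at an FDR of 10%, 0.989% of entries higher), and it is also a marker of cerebellar and cortical cells. Npy, a peptide of a different interneuron class, had 21.3, 62.5, 42.5 and 24.9, with a log2 difference of -1.33 (SE 0.51) in KO DR against WT DR that did not pass the FDR (adjusted p 0.31). Slc18a3, the vesicular acetylcholine transporter, had 3.81, 3.90, 11.1 and 12.3, and Sst 396, 365, 311 and 322.

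Among receptors for the products of Penk and Tac1, the delta opioid receptor gene Oprd1 had an FPKM of 4.52 in WT AL, 5.10 in WT DR, 7.04 in KO AL and 3.92 in KO DR. The substance P receptor gene Tacr1 had 1.65, 2.32, 2.46 and 2.45. Their log2 differences in KO DR against WT DR were -0.38 (SE 0.45) and 0.08 (SE 0.50), and neither passed the FDR.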
